A study of Actinidia chinensis with 12 samples.

Results

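The data set asks, in Hongyang and Jinyan kiwifruit, how the flesh core differs from the whole fruit, and the contrast described here is the cultivar dependence of that difference. For each gene it is the log2 difference of Hongyang core minus Hongyang whole fruit, less the log2 difference of Jinyan core minus Jinyan whole fruit. It uses all 12 of the 12 libraries: 3 each of Hongyang core, Hongyang whole fruit, Jinyan core and Jinyan whole fruit, all from ripened fruits taken at harvest. The samples other than core are labelled whole fruit, and the design text names the periphery instead. They are called whole fruit throughout, and no source used here says whether they held core tissue as well. Replicates are not tied to separate fruits or trees by any label, so each p-value weighs a difference against the spread of these libraries alone, which may be technical.

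A kiwifruit has a pale central core, the columella, within an inner pericarp that carries the seeds and an outer pericarp under the skin. Hongyang is a red-fleshed cultivar of Actinidia chinensis, in which anthocyanin gathers in the inner pericarp around the core. Jinyan is a yellow-fleshed cultivar bred from a cross of Actinidia eriantha with Actinidia chinensis. A gene whose core and whole fruit levels differ by the same factor in both cultivars has an interaction of 0 on the log2 scale, whatever its level in each cultivar. A positive interaction means that the core, relative to whole fruit, stood higher in Hongyang than in Jinyan, and a negative one that it stood lower. In bulk tissue, fewer cells of a type and less RNA per cell cannot be told apart.

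Genes are given by the identifiers of the count table, which pairs them with no names, so neither the tissue labels nor any pathway could be checked against marker genes. Library totals ran from 1888744 counts, in Hongyang whole fruit replicate 3, to 21222578, and 22199 of 39040 identifiers carried enough counts to be tested. Hongyang whole fruit was the least uniform group. Its libraries correlated at Spearman rho of 0.833 to 0.949 across genes, against 0.966 to 0.980 over the other 3 groups. Levels are given as CPM, each gene's counts scaled to a common library size after a trimmed-mean (TMM) factor for composition.

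The core difference depended on the cultivar for 500 genes, 2.25% of those tested (edgeR's quasi-likelihood test, Benjamini-Hochberg adjusted p under 0.05). At an unadjusted p under 0.05 there were 3929 genes (17.7%). The interaction was positive for 277 genes (1.25%) and negative for 223 (1.00%). For 414 of the 500 the fitted core differences had opposite signs. Of these, 234 were fitted higher in the Hongyang core and lower in the Jinyan core, and 180 the other way round. Among all genes tested, 36.7% had fitted differences of opposite sign, and choosing genes on the interaction itself favours such signs. Sizes differed with direction, with a median interaction of 2.97 for the positive and -2.12 for the negative genes. These medians include 40 and 14 genes with 0 counts in all libraries of a group. With such a group set to 3 counts over its libraries, the medians were 2.96 and -2.12. Such a bound moves a median little, so it does not test the difference in size between the directions. Interactions of at least 8-fold were fitted for 138 positive and 51 negative genes, together 37.8% of the 500 against 5.65% of all genes. Among them are genes with 0 counts in a group, whose fitted size depends on the prior count. Choosing genes on the interaction also favours large fitted sizes. The last gene called had an adjusted p of 0.0499 and an interaction of 1.21, and the first gene not called had 0.0502 and 2.02.

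How the calls split by direction depended on the scaling and on other settings. With library totals alone, in place of TMM factors, 78.9% of called genes were positive against 55.4%, and the median over all genes lay at 0.23 instead of -0.02. With RLE factors, another scaling for composition, the positive share was 56%. It was lowest at 49.3% among genes with at least 5 CPM in a group, and 48.4% without Hongyang whole fruit replicate 3. It rose to 67.2% with a replicate block within each cultivar, and to 67.2% without Jinyan whole fruit replicate 3. The TMM factors were 0.730 to 0.879 in Jinyan core and 1.08 to 1.11 in Jinyan whole fruit, 0.979 to 1.00 in Hongyang core and 0.986 to 1.34 in Hongyang whole fruit. The part of composition in the result was not tested beyond these alternatives.

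**Figure D1:**
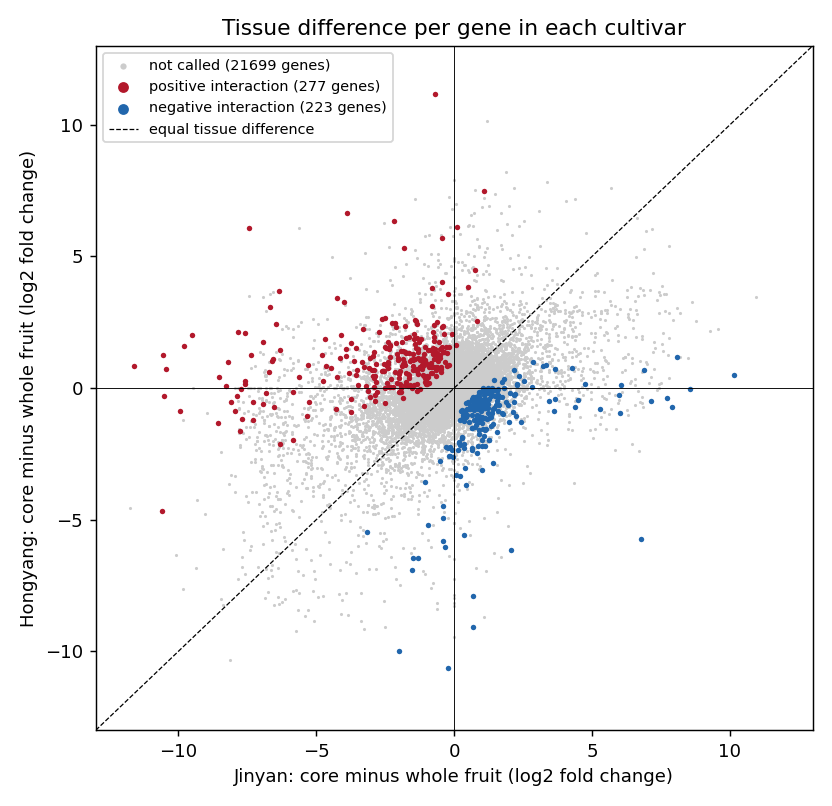
Each point is a gene, with its core minus whole fruit log2 fold change in Jinyan on the horizontal axis and in Hongyang on the vertical axis. The 277 genes with a positive interaction lie above the dashed line of equal difference and the 223 with a negative one below it, most of them in the quadrants of opposite sign.

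Within the same fit, most of the called genes passed the core test in Jinyan and not in Hongyang. The core test was passed in Jinyan alone by 316 of them (63.2%), against 14.9% of all genes, of which 16.6% passed it in Jinyan whether or not in Hongyang. It was passed in Hongyang alone by 116 (23.2%), against 2.96% of all genes, of which 4.68% passed it in Hongyang. Another 42 (8.4%) passed in both, against 1.72% of all genes, and 26 (5.2%) in neither, against 80.4%. These classes share libraries with the interaction and are given as a description. Of the 316 genes, 185 fell in the Jinyan core, with a median log2 fold change of -2.48 in Jinyan and 0.66 in Hongyang. The other 131 rose in the Jinyan core, with medians of 1.36 in Jinyan and -0.45 in Hongyang. A missed Hongyang test does not show that these genes were alike in Hongyang core and whole fruit. The fitted Hongyang difference had the opposite sign in 151 of the 185 and in 108 of the 131, a direction that choosing genes on the interaction favours.

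Among the 116 genes that passed in Hongyang alone, 53 rose in the Hongyang core, with medians of 1.55 in Hongyang and -0.58 in Jinyan. The other 63 fell there, with medians of -2.20 in Hongyang and 0.36 in Jinyan. Of the 42 genes that passed in both cultivars, 26 rose in the Hongyang core and fell in the Jinyan core, and 8 fell in the Hongyang core and rose in the Jinyan core. These 34 are all of the genes tested that passed both core tests with opposite signs. The other 8 changed in the same direction in both cultivars and by different amounts.

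Read by library, every called gene had core and whole fruit separated in at least 1 cultivar, while 39.1% of all genes were separated in neither. Core and whole fruit libraries did not overlap in Hongyang for 282 of the 500 genes, against 24.9% of all genes, and in Jinyan for 449, against 48.1% of all genes. For 209 genes the libraries separated in both cultivars in opposite directions, against 2.51% of all genes. In 116 of these every Hongyang core library lay above and every Jinyan core library below the whole fruit libraries of its cultivar (1.31% of all genes), and in 93 the positions were reversed (1.20%). The genes were chosen on these same libraries, which favours such separation, so these counts describe the calls and do not test them.

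The same contrast can be read as a cultivar difference that depends on the tissue. The test between cultivars was passed in the core alone by 227 of the 500 genes (45.4%), against 15.2% of all genes. Of all genes, 30% passed it in the core whether or not in whole fruit. It was passed in whole fruit alone by 134 genes (26.8%), against 10.1% of all genes, of which 24.8% passed it in whole fruit. It was passed in both tissues by 139 genes (27.8%), against 14.7% of all genes. A missed test does not show that the cultivars were alike in that tissue. None of the 500 missed both tests, against 60% of all genes, and choosing genes on the interaction favours that. In 68 of the 139 the order of the cultivars turned. For 39 of these Hongyang was higher in core and lower in whole fruit, against 40 (0.18%) of all genes tested. For 29 it was lower in core and higher in whole fruit, against 29 (0.131%) of all genes tested. Nearly all genes with such a turn are thus among the 500, which the contrast favours.

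To describe the shape of each gene's profile, the 4 group means of each gene, as log2(CPM + 0.5), were put in order and split at the widest gap. A single group stood apart for 396 of the 500 genes (79.2%), against 65.4% of all genes. The most frequent shape was a low Jinyan core, in 126 genes or 25.2%, against 11.2% of all genes tested. A low Jinyan whole fruit held 57 genes or 11.4%, against 7.71% of all genes, and a low Hongyang core 46 genes or 9.2%, against 4.11%. A high Jinyan whole fruit held 7.6%, against 5.62% of all genes. A high Jinyan core, with 52 genes or 10.4%, lay near its share of 11.4% among all genes. Rarer than among all genes were a high Hongyang whole fruit (5.4% against 10%) and a low Hongyang whole fruit (6% against 8.82%). A high Hongyang core was also rarer (4% against 6.56%). A fully crossed profile, with Hongyang core and Jinyan whole fruit on the same side of the gap, was found in 67 genes or 13.4%, against 3.18% of all genes. Choosing genes on the interaction favours that profile. Profiles split by cultivar (7%) or by tissue (0.4%) were rarer than among all genes (21.1% and 10.3%). That follows from the contrast, which cancels differences that are equal in both cultivars or both tissues.

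**Figure D2:**
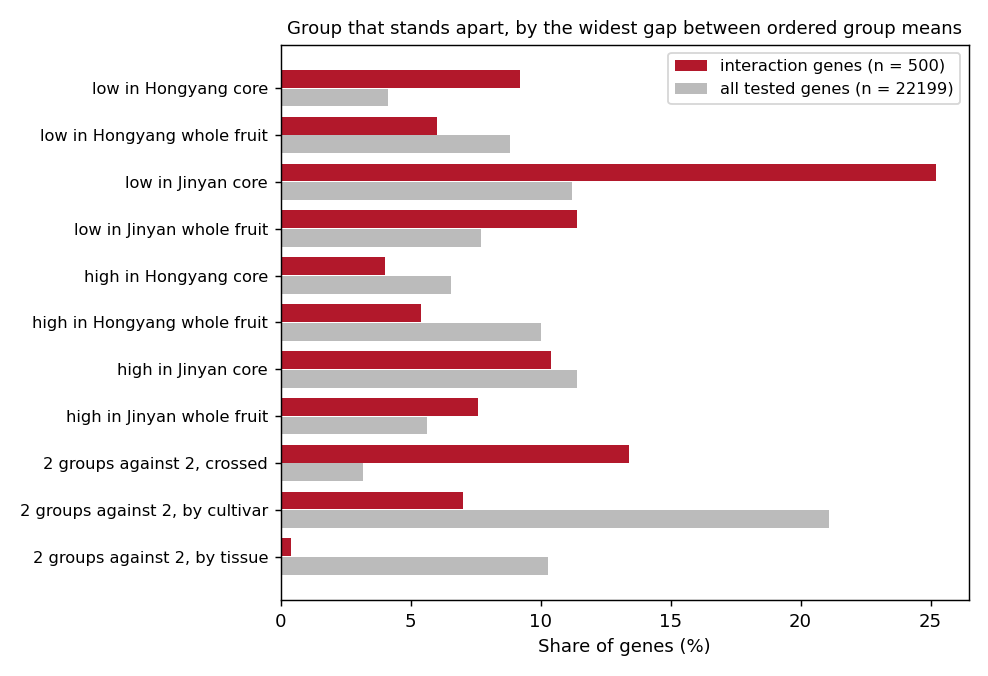
Bars give the share of genes, in percent, whose widest gap between ordered group means sets the named group or pair of groups apart, for the 500 interaction genes and for all 22199 genes tested. A low Jinyan core holds 25.2% of the interaction genes against 11.2% of all genes.

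The levels of the called genes differed between libraries of a group as well as between groups. Over the 277 positive genes the median log2(CPM + 0.5) was 3.85, 4.50 and 4.0 in Hongyang core replicates 1, 2 and 3, against 3.28, 3.41 and 2.94 in Hongyang whole fruit. It was 2.30, 2.23 and 2.39 in Jinyan core, against 4.06, 4.31 and 3.96 in Jinyan whole fruit. Replicate 2 stood highest in Hongyang core, Hongyang whole fruit and Jinyan whole fruit. It was the highest Hongyang core library for 61.7% of the positive genes, against 34.9% of all genes, and the highest Hongyang whole fruit library for 50.7%, against 42.1%. It was the highest Jinyan whole fruit library for 50.5%, against 33.3% of all genes. Hongyang core replicate 1 was the lowest of its group for 63.6% of the positive genes, against 37.9% of all genes. Hongyang whole fruit replicate 3 was the lowest of its group for 62.6%, against 52.5%. Over the 223 negative genes the medians were 3.51, 3.21 and 3.36 in Hongyang core, against 4.42, 4.42 and 4.17 in Hongyang whole fruit. They were 4.42, 4.66 and 4.52 in Jinyan core, against 3.54, 3.57 and 3.45 in Jinyan whole fruit. For the negative genes replicate 2 was the lowest Hongyang core library in 56.3%, against 35.1% of all genes, and the highest Jinyan core library in 48.4%, against 34.2%. The genes were chosen on these libraries, so the medians describe the calls and do not test them.

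**Figure D3:**
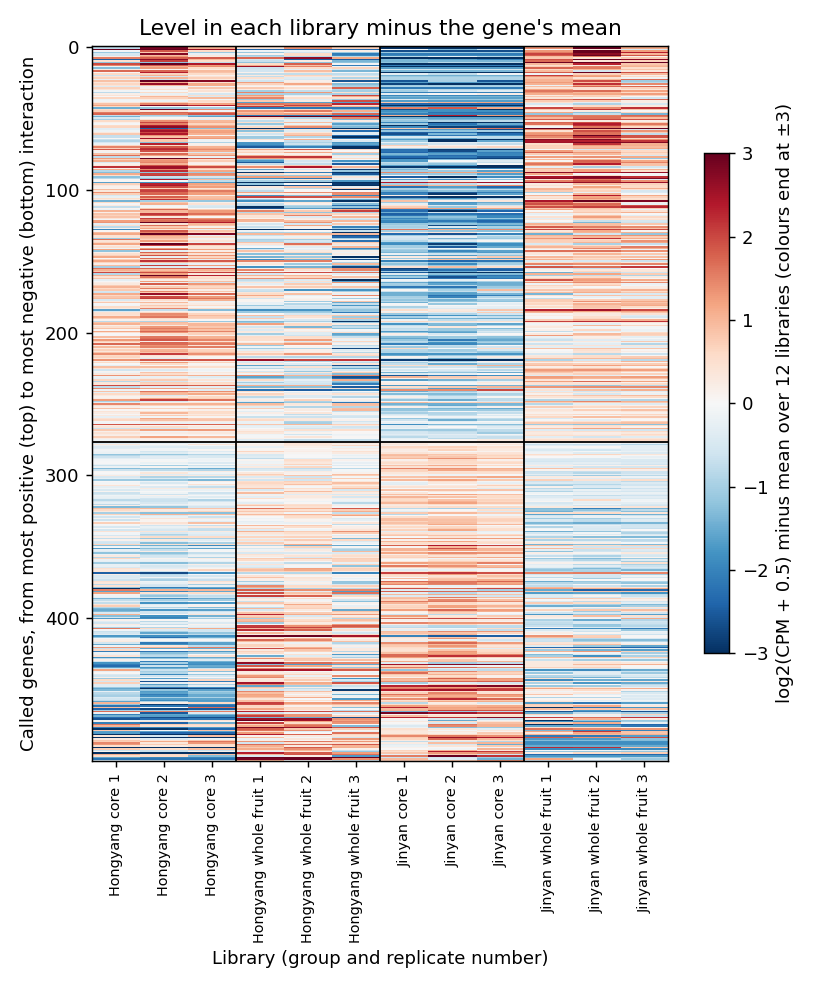
Rows are the 500 interaction genes, from the most positive interaction at the top to the most negative at the bottom, and columns the 12 libraries. Colour gives log2(CPM + 0.5) minus the gene's mean over the libraries, and the line between rows parts the 277 positive from the 223 negative genes. Jinyan core is low and Hongyang core replicate 2 high over much of the positive block.

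Individual genes were taken by how many of 23 other settings of the analysis also called them, then by their highest adjusted p over these. The 6 genes described below were called under all 23. Achn018651 had 102.0, 130.2 and 74.6 CPM in Hongyang core, against 5.82, 8.55 and 2.38 CPM in Hongyang whole fruit. It had 41.0, 48.5 and 55.9 CPM in Jinyan core, against 57.8, 68.0 and 69.3 CPM in Jinyan whole fruit. Hongyang whole fruit thus stood far below the other 3 groups, with only 6 counts in replicate 3, and neither cultivar's tissues overlapped. The interaction was 4.47 ± 0.43 on the log2 scale (SE; edgeR adjusted p = 0.00042). Achn018651 rose in the Hongyang core by 4.05 ± 0.33 (SE; adjusted p = 3.8e-05), and its Jinyan difference of -0.43 ± 0.29 did not pass (adjusted p = 0.32). Between cultivars it was lower in Hongyang whole fruit, at -3.39 ± 0.33 (adjusted p = 1.5e-05), and higher in Hongyang core, at 1.08 ± 0.29 (adjusted p = 0.012).

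Achn273241 was the reverse case, in which the Jinyan core stood alone. It had 26.2, 31.1 and 32.5 CPM in Hongyang core, against 29.7, 58.5 and 19.9 CPM in Hongyang whole fruit. No Jinyan core library held a count of it, against 15.2, 11.1 and 15.1 CPM in Jinyan whole fruit. The Hongyang libraries overlapped between tissues and the Jinyan libraries did not. Set against 3 counts over the 3 libraries of Jinyan core, it was at least 197-fold lower in Jinyan core than in Jinyan whole fruit. By the same limit it was at least 427-fold higher in Hongyang core than in Jinyan core. Leaving out a library at 0 lowers these limits by construction, to 122-fold and 264-fold without Jinyan core replicate 1 and to 130-fold and 282-fold without replicate 3. The interaction passed the edgeR test (adjusted p = 0.00063), and its fitted value of 10.22 depends on the prior count and is no limit. The Hongyang difference of -0.30 ± 0.32 did not pass (adjusted p = 0.63).

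The first 2 genes with a negative interaction, Achn010371 and Achn188221, were nearly without counts in the Hongyang core. Achn010371 had 0, 4 and 1 counts there, or 0, 0.193 and 0.0473 CPM, against 32.6, 22.7 and 15.1 CPM in Hongyang whole fruit. It had 10.9, 15.2 and 16.8 CPM in Jinyan core, against 7.08, 9.21 and 10.3 CPM in Jinyan whole fruit. From the summed counts it was 288-fold lower in Hongyang core than in Hongyang whole fruit, with an exact 95% interval of 123 to 889 for counting error only. Its interaction was -8.60 ± 0.63 (SE; edgeR adjusted p = 5.9e-05), and -9.98 without Hongyang core replicate 2, which held most of the counts in that group. The Jinyan difference of 0.68 ± 0.34 did not pass (adjusted p = 0.17), although the Jinyan libraries did not overlap.

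Achn188221 had 0.452, 0.578 and 0.379 CPM in Hongyang core, against 48.6, 30.8 and 13.9 CPM in Hongyang whole fruit. It had 16.1, 13.6 and 14.1 CPM in Jinyan core, against 18.5, 17.9 and 19.1 CPM in Jinyan whole fruit. Hongyang core was again the lowest group by a wide gap, and the other 3 groups lay between 13.6 and 48.6 CPM. Achn188221 fell in the Hongyang core by 6.06 on the log2 scale (SE 0.42; edgeR adjusted p = 1.4e-05), the Jinyan difference was -0.34 ± 0.32 (adjusted p = 0.48), and the interaction was -5.72 ± 0.52 (adjusted p = 0.00042).

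Achn318561 and Achn121551 were the first genes each way among those that passed the core test in both cultivars with opposite signs. Achn318561 had 42.3, 56.0 and 41.6 CPM in Hongyang core, against 23.7, 24.8 and 16.3 CPM in Hongyang whole fruit. It had 11.6, 7.95 and 12.2 CPM in Jinyan core, against 24.8, 37.6 and 31.3 CPM in Jinyan whole fruit. It rose in the Hongyang core by 1.08 ± 0.24 (SE; edgeR adjusted p = 0.024) and fell in the Jinyan core (-1.55 ± 0.24; adjusted p = 0.0028), with an interaction of 2.64 ± 0.34 (adjusted p = 0.0029).

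Achn121551, the most abundant of the 6, moved in the opposite sense. It had 46.4, 39.6 and 34.7 CPM in Hongyang core, against 523, 316 and 193 CPM in Hongyang whole fruit. It had 236, 177 and 184 CPM in Jinyan core, against 108, 108 and 79.2 CPM in Jinyan whole fruit. The tissues of neither cultivar overlapped. It fell in the Hongyang core (-3.10 ± 0.32; SE; edgeR adjusted p = 0.00024) and rose in the Jinyan core by 1.02 ± 0.30 (adjusted p = 0.035), with an interaction of -4.12 ± 0.44 (adjusted p = 0.00063). The order of the cultivars turned with the tissue: Hongyang was lower in core, at -2.31 ± 0.31 (adjusted p = 0.00014), and higher in whole fruit, at 1.81 ± 0.31 (adjusted p = 0.00094).

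**Figure D4:**
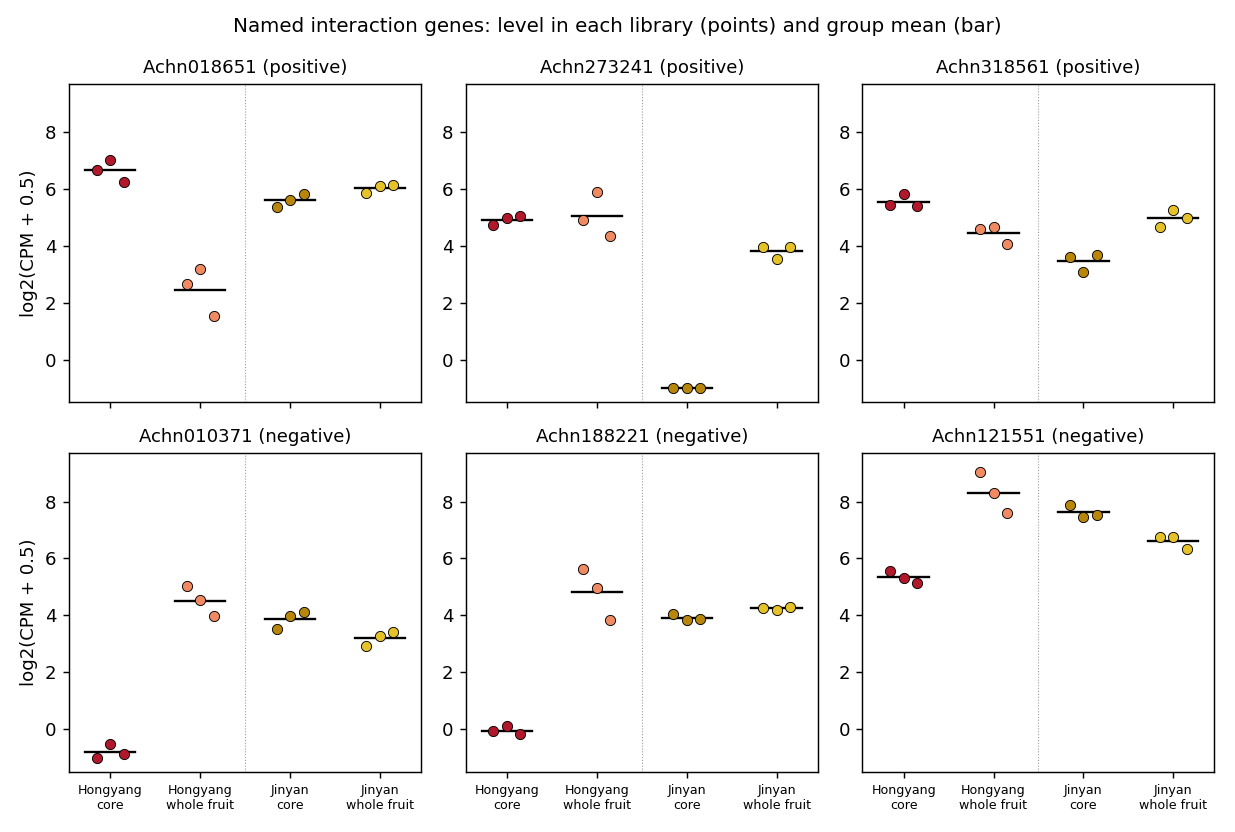
Each panel shows 1 gene, with log2(CPM + 0.5) on the vertical axis, a point for each of the 3 libraries of a group and a bar at their mean. The 3 genes of the upper row have a positive and the 3 of the lower row a negative interaction. Achn018651 is low in Hongyang whole fruit alone, Achn273241 in Jinyan core alone, and Achn010371 and Achn188221 in Hongyang core alone.

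The number of interaction genes changed when a single library was left out, which also lowers the replication of its group. The part of that loss was not tested. Leaving out the shallowest library, Hongyang whole fruit replicate 3, gave 1899 genes, and this larger list held all of the 500. Without Hongyang whole fruit replicate 1 it was 239, without Hongyang core replicates 2 and 3 it was 157 and 192, without Jinyan core replicates 1, 2 and 3 it was 211, 160 and 214, and without Jinyan whole fruit replicates 1, 2 and 3 it was 168, 150 and 183. Of these 9 shorter lists, between 142 and 210 genes were among the 500. Without Hongyang core replicate 1 there were 491 genes, 362 of them among the 500, and without Hongyang whole fruit replicate 2 there were 733, 439 of them among the 500. When Hongyang whole fruit was represented by replicate 1 alone, an alternative chosen after seeing the data, 999 genes were called, 403 of them among the 500. No gene of the 500 changed the sign of its interaction under any of the 23 settings that tested it. The genes were chosen for a called interaction and the settings refit the same libraries, so that agreement is no sign of stability.

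A smaller list held throughout. Of the 500 genes, 120 were called whichever library was left out, and 77 under all 23 settings. These 77 comprised 49 positive genes, with interactions of 1.41 to 11.84 (median 3.51), and 28 negative genes, from -9.76 to -1.35 (median -2.86). Of the 77, 40 passed the core test in Jinyan only, 17 in Hongyang only and 20 in both. The fitted core differences had opposite signs in 68 of them. A low Jinyan core was the shape of 27 of the 49 positive genes, and a low Hongyang core that of 12 of the 28 negative genes. The list was drawn from these same libraries, so its counts are a description.

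**Figure D5:**
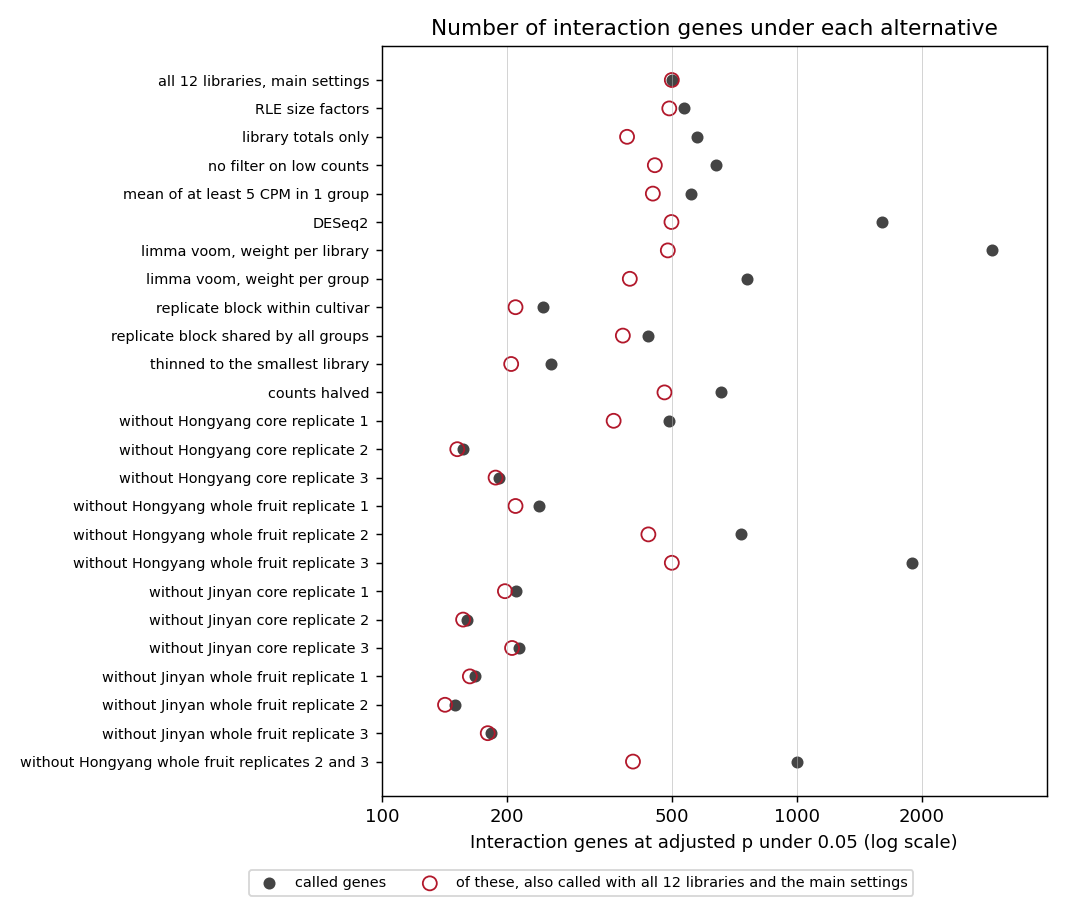
For each setting, the filled point gives the number of interaction genes on a log scale and the open circle how many of them are among the 500 called with all 12 libraries. The counts run from 150, without Jinyan whole fruit replicate 2, to 2955, with limma voom and a weight per library.

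The contrast adds the errors of 4 group means. The median standard error over genes was 0.50 for the interaction, against 0.35 for the core difference in Hongyang and 0.35 in Jinyan. These errors share 1 estimate of spread per gene over the 4 groups, so they do not measure each cultivar's own spread. The limma voom weight per group was 0.428 for Hongyang whole fruit and 1.80 for Jinyan whole fruit, where a lower weight marks more spread. All but 1 of the 500 called genes had a fitted interaction of at least 2-fold, and the smallest was 0.98 on the log2 scale. Among the 21699 genes not called, the 95% interval of the interaction lay within 2-fold either way for 3521 (16.2%) and within 4-fold for 12979 (59.8%). For the other genes not called the interval reached past 4-fold, so an interaction of that size was not resolved at this depth and spread. Calls were rarest among weakly expressed genes. They made up 0.609% of genes with a mean below 1 CPM and 1.52% between 1 and 5 CPM, against 2.69% between 5 and 20 CPM, 3.30% between 20 and 100 CPM and 2.74% from 100 CPM. The median standard error was 1.72 below 1 CPM and 0.32 between 20 and 100 CPM. Called genes below 1 CPM had a median absolute interaction of 7.73, against 1.97 between 20 and 100 CPM.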

How the data were processed

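The authors deposited 1 table of raw read counts, whole numbers for each gene and library. The submitters' processing notes name Trimmomatic 0.36 for trimming and HISAT2 2.1.0 for alignment. No source used here gives the counting program, genome build, strand setting or treatment of reads shared by gene copies, so counts of similar, overlapping or antisense genes are uncertain.

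The analysis used edgeR 4.0.16 under R 4.3.3. filterByExpr on the 4 groups left 22199 genes, which hold 99.9% of the counts. After TMM scaling, 4 group means were fitted over the 12 libraries with estimateDisp and glmQLFit, and contrasts were tested with glmQLFTest. P-values were adjusted by Benjamini-Hochberg over all genes tested, with a threshold of 0.05. A standard error is the absolute log2 fold change over the square root of F. Replicate numbers were not used as a block. The fit was run on simulated counts with changes set in Hongyang core. The fit recovered 63% of 4-fold and 4% of 2-fold changes, with 6 false calls among 21321 unchanged genes. Every group was given the same spread per gene, so the uneven Hongyang whole fruit group was not represented.

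Named genes have a mean of at least 5 CPM in 1 group. They are the first 2 each way by the number of other settings that also call them, then by the lowest of their highest adjusted p, plus the first each way that passed the core test in both cultivars with opposite signs. The contrast and the lists were chosen with earlier results of these data known. Lists of pathway and marker genes were not used, since the identifiers carry no names.

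The other settings were RLE factors or none, no filter or a minimum of 5 CPM, DESeq2 1.42.0, limma 3.58.1 voom with weights per library or group, a replicate block, thinning to the smallest library, halved counts, and each library left out. Intervals from counts cover counting error only.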

Additional observations from a re-analysis of the deposited data

Results flagged for a closer look

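The interaction term itself marks the core difference as differing between the cultivars for 500 genes by edgeR. The 6 genes described individually carry the same mark. Their interactions, as the Hongyang core difference less the Jinyan one on the log2 scale, were 4.47 for Achn018651, 10.22 for Achn273241, -8.60 for Achn010371, -5.72 for Achn188221, 2.64 for Achn318561 and -4.12 for Achn121551. The value for Achn273241 rests on 0 counts in Jinyan core and depends on the prior count.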

How the results depend on the processing

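The number of interaction genes, 500, ran from 150 to 1899 when each library was left out in turn. It was 1604 with DESeq2, 2955 with limma voom and a weight per library, 759 with limma voom and a weight per group, 256 with every library thinned to the smallest total, and 999 with Hongyang whole fruit replicate 1 as the sole library of its group, which is then assumed to vary like the other groups. The first 3 lists held 499, 489 and 396 of the 500 genes, and the thinned list, with 15181 genes tested, 205. The voom weights per library were 0.228 and 0.310 for Hongyang whole fruit replicates 2 and 3 and 2.25 for replicate 1. The cause of these moves was not tested. RLE factors, library totals, both other filters, halved counts and 2 of the libraries left out kept the count within 1.5 times. With a replicate block within each cultivar the count was 244, and with replicate numbers shared by all groups 438. Whether the numbers mark a pairing cannot be settled with 3 libraries in each group. Over 13401 genes, deviations of same-numbered libraries within a cultivar correlated at -0.04 to 0.18, and those between cultivars at -0.09 to 0.31. Among the libraries of the other tissue of the same cultivar, 4 of 12 libraries correlated best with their own number. The 6 genes named were chosen for being called under these settings, so their calls are no sign of stability. Hongyang whole fruit replicate 3, with 1888744 counts, limits how far low genes can be compared.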
